A study of Mus musculus with 6 samples.

Results

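The 90 genes described here are the potassium channel genes of the deposited table outside the apical acid set. They are every row whose symbol starts with Kcn, out of 23284 genes in the table, without Kcnq1, Kcne2, Kcnj15, Kcnj16 and Kcnj10, the 5 genes of the acid-secreting apical membrane that the rule leaves out. They comprise 39 voltage-gated pore subunits, 12 partners of voltage-gated subunits, 12 inward rectifiers, 14 2-pore-domain subunits, 12 calcium- and sodium-activated subunits and 1 non-coding RNA, Kcnq1ot1. The genes were chosen by name and not by their values.

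RNA was measured in mouse parietal cells, which secrete gastric acid and were sorted here by the red fluorescence of tdTomato. The 3 control libraries (labelled genotype Transgenic-Tom) were compared with 3 noggin libraries (labelled genotype Transgenic-Tom-nog), whose mice also carried H+/K+-Nog, a noggin transgene under the promoter of the parietal cell proton pump. Noggin is a secreted protein that binds bone morphogenetic proteins (BMPs) and keeps them from their receptors. tdTomato was expressed from the Rosa26 locus after recombination by H+/K+-Cre. The same promoter therefore chose the cells that were sorted and drove the transgene. The noggin mice thus carried H+/K+-Cre, the Rosa26 reporter and H+/K+-Nog together, and the labels do not spell out the Cre of the controls. Age and any pooling of animals are not stated, so the p-values measure only the spread between these libraries.

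Potassium channels let potassium leave the cell along its gradient and so set the membrane voltage. In a parietal cell the proton pump takes up potassium from the lumen in exchange for protons, and channels of the apical membrane return it. Channels of the basolateral membrane return the potassium that the sodium pump brings in. Pore subunits of the voltage-gated, inward rectifier and calcium-activated classes assemble in fours. The 2-pore-domain subunits pair up and carry background currents, and the partner subunits form no pore of their own.

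The transgene followed the labels, and RNA of other gland cells was present in the sorted fraction. Nog was at 0.871 to 1.97 FPKM (fragments per kilobase of transcript, scaled to the mapped reads) in controls and at 2281 to 2734 FPKM in noggin libraries. All 8 parietal markers were tested, and limma called 4 of them lower (Hip1r, Esrrg, Clic6 and Slc26a7) and 0 higher. The proton pump subunits Atp4a and Atp4b were at 14422 ± 1562 and 19814 ± 2547 FPKM (mean ± SD, n = 3) in controls and at 6275 ± 1176 and 23024 ± 1930 FPKM (n = 3) in noggin libraries, with log2 fold changes of -1.21 (limma adjusted p = 0.124) and 0.22 (limma adjusted p = 0.814). All 4 markers of mucous neck cells were called higher. Of the 6 chief cell markers 0 were called. Their sum was 60883 to 111935 FPKM in controls and 131137 to 357434 FPKM in noggin libraries, of which Clps made up a mean of 35788 and 162433 FPKM, while Pgc overlapped between groups and Bhlha15 was at -0.70 in log2 (limma adjusted p = 0.455). Of 6 mast cell markers, limma called 4 higher (Cpa3, Mcpt1, Mcpt2 and Cma1) and 1 lower (Kit), and their sum was 35.5 to 59.1 FPKM in controls and 132 to 195 FPKM in noggin libraries. The depth of the libraries is unknown. Noggin replicate 3 stood apart, with 542 of the 10644 tested genes listed at 0 against 19 to 34 in each of the other 5 libraries. In it 47 of the 90 potassium channel genes were listed at 0, against 21 to 43 in the others, and values without it are given for the genes whose log2 fold change it moved most.

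Expression of this group was concentrated in few genes. A gene entered the test when 3 or more libraries reached 1 FPKM, and 14 of the 90 did so. Of the 76 others, 6 reached 1 FPKM in at least 1 library, 38 had their highest value between 0.1 and 1 FPKM, and 32 stayed under 0.1 FPKM. Within those 32, 8 genes were listed at 0 in all 6 libraries, namely Kcna3, Kcnd2, Kcne1l, Kcne4, Kcnk15, Kcnq3, Kcns2 and Kcnv1. The summed level of the 90 genes was 146, 135 and 155 FPKM in control replicates 1, 2 and 3 and 185, 221 and 153 FPKM in noggin replicates 1, 2 and 3. The FPKM of all genes summed to 595736 to 669124 in controls and 797168 to 1188190 in noggin libraries, so as a share of that total the 90 genes held 0.023%, 0.0202% and 0.026% in control replicates 1, 2 and 3 and 0.0157%, 0.0277% and 0.0129% in noggin replicates 1, 2 and 3. The groups overlapped on both scales, and which had the higher mean depends on the scale. The apical set of 5 summed to 691 to 826 FPKM in controls and 449 to 578 FPKM in noggin libraries. By class, 6 of 14 2-pore-domain subunits were tested, 3 of 12 partners, 2 of 39 voltage-gated pore subunits, 1 of 12 inward rectifiers and 1 of 12 calcium- and sodium-activated subunits.

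**Figure D1:**
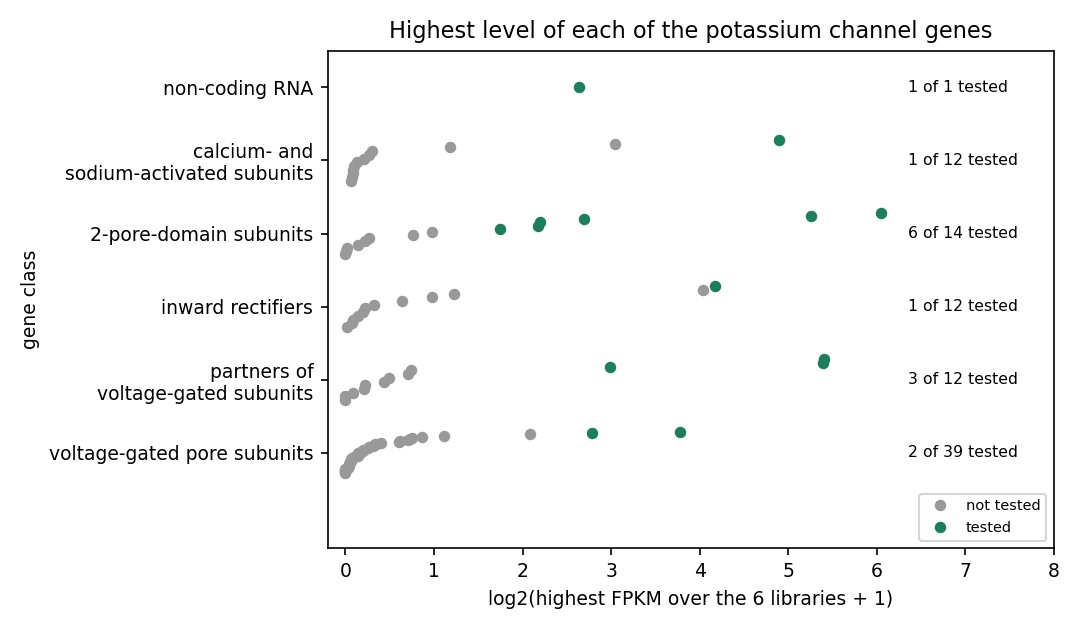
Highest level over the 6 libraries, as log2(FPKM + 1), of each of the 90 potassium channel genes (1 point per gene), by class. Green points are the 14 tested genes. The voltage-gated pore subunits are the class with the most genes, 39, and 2 of them were tested.

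None of the 14 tested genes was called changed in noggin libraries. The test was limma on log2(FPKM + 1) over all 10644 tested genes, two-sided, with a gene called at a Benjamini-Hochberg adjusted p under 0.05. It called 0 potassium channel genes higher and 0 lower, against 2.44% of all tested genes. Kcnk16 and Kcnip3, 2 of the 14, had an unadjusted p under 0.05, against 26.7% of all tested genes. The same 2 genes were the ones whose control and noggin libraries did not overlap, against 38.3% of all tested genes in either direction and 20.3% with noggin higher. Both were higher in noggin libraries, and the other 12 overlapped. The log2 fold change was positive for 9 and negative for 5 of the 14, with a median of 0.33, beside 48.3% positive and a median of -0.03 over all tested genes. Kcnip3 passed the filter with noggin libraries alone, so its lack of overlap followed from the filter and is no result. Kcnk16 reached 1 FPKM in 1 control library, but its 3 noggin libraries alone met the filter, so its lack of overlap is not independent of the filter. Kcnq1ot1 passed with 1 control and 2 noggin libraries. With such genes among the 14, this median is no measure of the 90 genes. With no filter on low values, 82 of the genes entered the test, 0 were called and the median was 0.03, beside 0.02 over all genes. In bulk RNA, a change in the share of a cell type and a change in RNA per cell cannot be told apart.

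**Figure D2:**
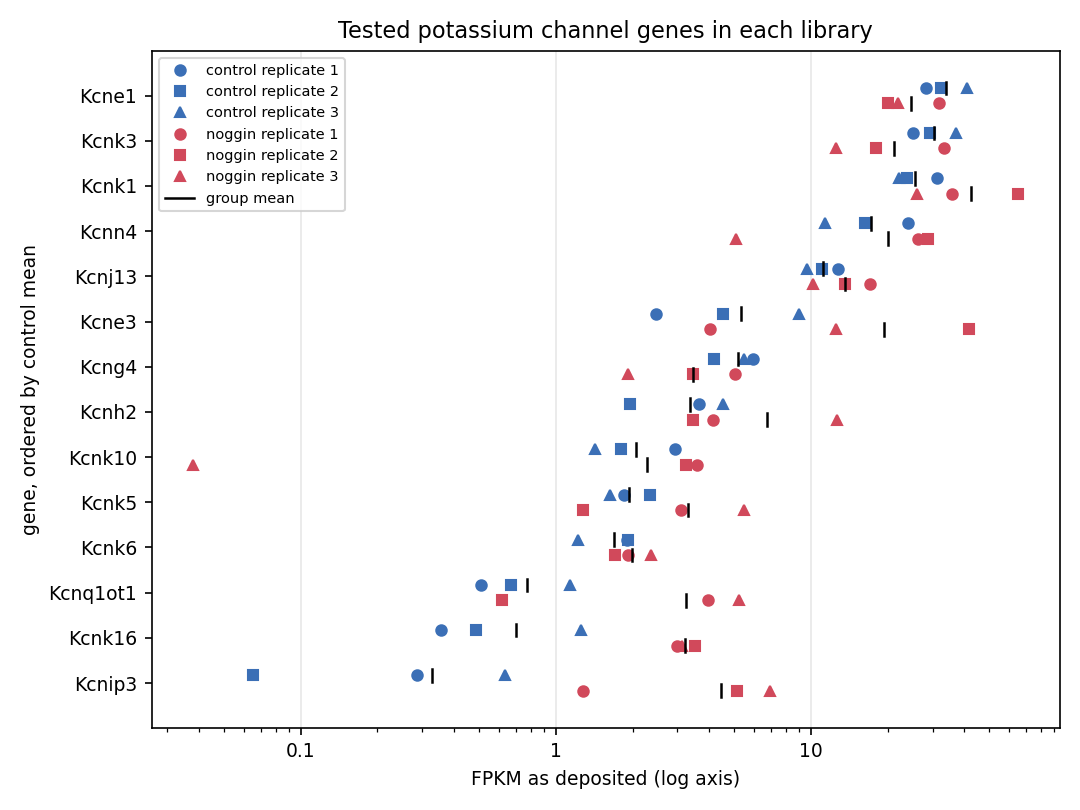
FPKM as deposited (log axis) of the 14 tested potassium channel genes in each of the 3 control and 3 noggin libraries, ordered by control mean, with black ticks at the group means. Control and noggin points are apart for Kcnk16 and Kcnip3 and overlap for the other 12 genes.

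**Figure D3:**
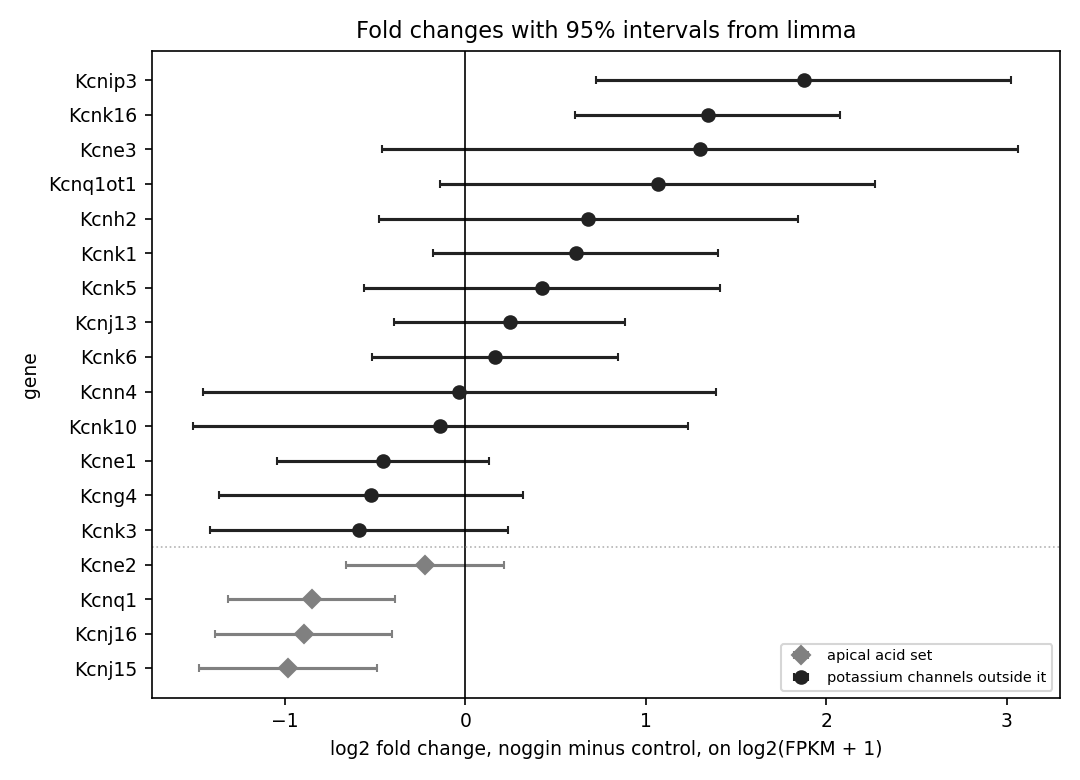
Log2 fold change of noggin against control on the log2(FPKM + 1) scale with its 95% interval from limma, unadjusted for the number of genes, for the 14 tested potassium channel genes and, in grey, the 4 tested genes of the apical set. The intervals of Kcnip3 and Kcnk16 lie above 0 and those of the other 12 include it.

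The promoter windows of Kcnk16 and Kcnip3 are shown first, with that of the tested neighbour of Kcnk16. Kcnk16 and Kcnip3 were the 2 tested genes whose groups did not overlap, which for Kcnip3 followed from the filter and for Kcnk16 was not independent of it. The neighbour is Kcnk5, which lies 79.6 kb from Kcnk16 on the same strand of chromosome 14 and whose groups overlapped. Each window is RefSeq sequence of build GRCm38.p6, 300 bases 5′ to 3′ on the minus strand, most of them upstream of an annotated start. The positions are chr14:20269220-20269519 for Kcnk16, chr14:20181733-20182032 for Kcnk5 and chr2:127522045-127522344 for Kcnip3, which is the first of 3 windows listed for that gene. Capitals mark GTCT or its complement AGAC, the core letters bound by Smad proteins that carry BMP signals, and GGCGCC, a GC-rich Smad motif.
Kcnk16: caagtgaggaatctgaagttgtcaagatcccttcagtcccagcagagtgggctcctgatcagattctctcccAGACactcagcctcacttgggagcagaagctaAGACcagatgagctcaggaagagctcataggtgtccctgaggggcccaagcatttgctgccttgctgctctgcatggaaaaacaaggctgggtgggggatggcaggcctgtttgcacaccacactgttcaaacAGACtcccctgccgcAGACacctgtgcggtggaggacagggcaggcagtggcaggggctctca
Kcnk5: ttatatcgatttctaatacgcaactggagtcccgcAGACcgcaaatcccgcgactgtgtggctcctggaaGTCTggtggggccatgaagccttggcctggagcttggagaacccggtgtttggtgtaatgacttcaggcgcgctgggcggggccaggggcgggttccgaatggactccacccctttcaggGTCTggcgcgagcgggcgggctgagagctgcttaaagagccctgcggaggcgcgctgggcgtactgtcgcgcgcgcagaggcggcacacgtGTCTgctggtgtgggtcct
Kcnip3: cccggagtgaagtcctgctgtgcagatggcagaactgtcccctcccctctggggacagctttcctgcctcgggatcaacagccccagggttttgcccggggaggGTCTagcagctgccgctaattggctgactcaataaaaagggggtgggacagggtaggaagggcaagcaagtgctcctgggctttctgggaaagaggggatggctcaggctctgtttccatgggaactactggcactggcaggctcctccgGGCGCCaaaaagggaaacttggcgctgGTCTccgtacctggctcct
GTCT or AGAC was found 4 times in the Kcnk16 window, 4 times in the Kcnk5 window and 2 times in the Kcnip3 window, and 88.0% of 32851 promoter windows of this length hold at least 1. GGCGCC, which reads the same on both strands and cannot overlap the other motif, was found 1 time, in the Kcnip3 window shown. The other Kcnip3 windows, not shown, hold 0 of it, and 11.9% of all windows hold it. Such a match is a description of letters and not a bound site. RefSeq windows were matched for 66 of the 90 genes.

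The 2-pore-domain subunits, the potassium leak channels, held 6 of the 14 tested genes. Kcnk16 (chromosome 14, 20261376 to 20269199 in GRCm38, the mm10 build), a subunit of channels opened by alkaline pH and best known from pancreatic islets, was at 0.355, 0.486 and 1.26 FPKM in control replicates 1, 2 and 3 and at 2.99, 3.50 and 3.14 FPKM in noggin replicates 1, 2 and 3. Every noggin library was above every control library, and the 3 noggin values lay close together. Those 3 libraries alone met the filter, so this separation is not independent of it. The log2 fold change of Kcnk16 was 1.34 (SE 0.316, limma adjusted p = 0.0729, higher in 3 of 3 noggin libraries), which did not pass. Single libraries and the scaling decide this call. It passed without noggin replicate 2 (1.29, limma adjusted p = 0.0460, where 18.9% of all tested genes were called), without noggin replicate 3 (1.35, limma adjusted p = 0.0462, where 5.55% of all tested genes were called) and with quantile normalization (1.58, limma adjusted p = 0.0224, where 4.45% were), and over all alternatives the limma adjusted p ran from 0.0224 to 0.301.

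Kcnk5 (chromosome 14, 20140057 to 20181809), a channel closed by acid and opened by alkaline pH, was at 1.85, 2.34 and 1.64 FPKM in control replicates 1, 2 and 3 and at 3.11, 1.28 and 5.48 FPKM in noggin replicates 1, 2 and 3. The groups of Kcnk5 overlapped, since noggin replicate 2 was below all controls. Its log2 fold change was 0.42 (SE 0.424, limma adjusted p = 0.540), 0.06 without noggin replicate 3 and 0.82 without noggin replicate 2. The windows of Kcnk5 and Kcnk16 above thus belong to neighbours, of which 1 kept its groups apart and 1 did not. The difference between the 2 genes was not tested.

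By the mean of each group, Kcnk1 and Kcnk3 were the most abundant pore subunits among the 90 genes. In single libraries Kcnk3 was passed by Kcnn4 (28.9 FPKM, noggin replicate 2) and by Kcnj6 (15.4 FPKM, noggin replicate 3). Kcnk1 (chromosome 8, 125995170 to 126030685), a weakly inwardly rectifying leak channel, was at 31.1, 23.8 and 22.1 FPKM in control replicates 1, 2 and 3 and at 35.8, 65.2 and 26.1 FPKM in noggin replicates 1, 2 and 3. Noggin replicate 2 was the highest library, and noggin replicate 3 was below control replicate 1. The log2 fold change of Kcnk1 was 0.61 (SE 0.340, 95% interval -0.18 to 1.40, limma adjusted p = 0.279). It was 0.26 without noggin replicate 2 and 0.90 without noggin replicate 3 (SE 0.299, limma adjusted p = 0.103). It turned to -0.08 after rescaling all libraries to the same total. An antisense gene on the other strand shares 179 annotated exon bases with Kcnk1 and its reads cannot be told apart without strand.

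Kcnk3 (chromosome 5, 30588170 to 30625271), an acid-sensitive leak channel, was at 25.1, 29.3 and 37.1 FPKM in control replicates 1, 2 and 3 and at 33.2, 18.0 and 12.6 FPKM in noggin replicates 1, 2 and 3. Noggin replicate 1 lay among the controls and the other two noggin libraries lay below them. Its log2 fold change was -0.59 (SE 0.355, 95% interval -1.42 to 0.23, limma adjusted p = 0.310), -0.29 without noggin replicate 3 and -0.95 without noggin replicate 1. On the FPKM scale, which is per length, Kcnk1 ranked 1 among the 90 genes in each noggin library and 1, 3 and 3 in control replicates 1, 2 and 3.

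Kcnk10 and Kcnk6 were low. Kcnk10 (chromosome 12, 98429437 to 98578310), a channel opened by stretch and lipids, was at 2.94, 1.80 and 1.43 FPKM in control replicates 1, 2 and 3 and at 3.57, 3.25 and 0.0379 FPKM in noggin replicates 1, 2 and 3. In noggin replicates 1 and 2 Kcnk10 was above every control, and in noggin replicate 3 it was near 0. Its log2 fold change was -0.14 (SE 0.590, limma adjusted p = 0.895) and turned to 0.56 (SE 0.257, limma adjusted p = 0.182) without noggin replicate 3, to 0.06 without control replicate 1, to 0.41 with quantile normalization and to 0.34 with a correction for transcript length. Kcnk6 (chromosome 7, 29221926 to 29232515), a relative of Kcnk1 found on endosomes and lysosomes, was the steadiest of the class, at 1.90, 1.93 and 1.23 FPKM across the controls, with 1.92, 1.70 and 2.36 FPKM for noggin replicates 1, 2 and 3. Its log2 fold change was 0.16 (95% interval -0.52 to 0.84, limma adjusted p = 0.744), and -0.30 after rescaling. Of the 8 other members of the class, Kcnk7 had the highest value in any library, 0.963 FPKM in noggin replicate 2, and Kcnk15 was listed at 0 throughout.

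Among the partners of voltage-gated subunits, Kcne1, Kcne3 and Kcnip3 were tested. Kcne1 (chromosome 16, 92345982 to 92359468), a single-span subunit that slows the opening of Kcnq1 channels, was the highest of the 90 genes by control mean. It was at 28.2, 32.4 and 40.9 FPKM in control replicates 1, 2 and 3 and at 31.8, 20.1 and 21.9 FPKM in noggin replicates 1, 2 and 3. Noggin replicate 1 lay within the control range and the other two noggin libraries lay below it. The log2 fold change of Kcne1 was -0.46 (SE 0.253, 95% interval -1.04 to 0.13, limma adjusted p = 0.278). After rescaling to the same total Kcne1 was called lower (-1.15, limma adjusted p = 0.0467), a setting that moved the median of all tested genes to -0.63 and called 8.93% of them.

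Kcne1 lies 47.9 kb from Kcne2, the partner of Kcnq1 at the apical membrane, on the opposite strand. Kcne2 was at 274 to 340 FPKM in controls and 239 to 288.9 FPKM in the noggin group (-0.22 in log2, SE 0.188, limma adjusted p = 0.464). Kcnq1 itself was at 210 to 228 FPKM in controls and 94.1 to 138 FPKM in noggin libraries (-0.85, SE 0.199, limma adjusted p = 0.0709), so in every library Kcne1 was below both on the FPKM scale.

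Kcne3 (chromosome 7, 100176502 to 100184869), which holds Kcnq1 channels open in other epithelia, had the largest SD of log2(FPKM + 1) among the 14 tested genes in both groups (0.764 in controls and 1.54 in noggin libraries). It was at 2.48, 4.54 and 9.02 FPKM in control replicates 1, 2 and 3 and at 4.02, 41.5 and 12.6 FPKM in noggin replicates 1, 2 and 3. Noggin replicate 1 lay within the control range, and noggin replicate 2 was above every other library. On the log2 scale noggin minus control was 1.30 (SE 0.760, limma adjusted p = 0.299). It was 0.51 without noggin replicate 2, 2.05 without noggin replicate 1, 0.70 after rescaling and 0.74 with the length correction, and none of these passed the test.

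Kcnip3 (chromosome 2, 127456498 to 127522094), a calcium-binding protein that regulates voltage-gated channels and also acts in the nucleus, had the highest fold change of the 14 genes. It was at 0.286, 0.0649 and 0.635 FPKM in control replicates 1, 2 and 3 and at 1.27, 5.12 and 6.94 FPKM in noggin replicates 1, 2 and 3. The lowest noggin library was above the highest control, which the filter fixed in advance, since no control library reached 1 FPKM. Noggin replicate 1 was closer to the controls than the other noggin libraries. The log2 fold change of Kcnip3 was 1.87 (SE 0.495, limma adjusted p = 0.0876, higher in 3 of 3 noggin libraries), which did not pass. Without noggin replicate 3 it was 1.51. It passed in none of its 14 alternatives, with a limma adjusted p between 0.0528 and 0.331. On this scale the value rests on the pseudocount, and it was 3.36 with a pseudocount of 0.1 and 3.88 with 0.01. The pore subunits that Kcnip proteins bind were near 0. Kcnd1 and Kcnd3 did not exceed 0.101 FPKM in any library, and Kcnd2 was listed at 0 in all 6.

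Levels of markers of enteroendocrine cells, the hormone cells of the gland, are given beside Kcnip3, Kcnk16 and Kcne3, none of which passed the test. Of 10 markers 8 were tested, 2 were called higher (Chga and Ghrl) and 0 lower, and 0 of the 10 were at 0 in all libraries. Their summed level was 454 to 2704 FPKM across the controls, with 1904, 28680 and 21308 FPKM for noggin replicates 1, 2 and 3. Chga, a protein of hormone granules, was at 65.6 to 142 FPKM across the controls, with 393, 820 and 1259 FPKM for noggin replicates 1, 2 and 3. Gast, which encodes gastrin, was at 203, 387 and 2226 FPKM in control replicates 1, 2 and 3 and at 22.3, 26026 and 14693 FPKM in noggin replicates 1, 2 and 3. The list was mixed, since Syp was at -0.40 in log2 (limma adjusted p = 0.658) and Sst in noggin replicate 1, at 18.3 FPKM, was below every control. For Gast and Kcne3 alike, control replicate 3 was the highest control and noggin replicate 2 the highest library. Kcnk16 was at 2.99 FPKM in noggin replicate 1, where the markers went both ways. Gast was lowest in that library and Sst was below every control, while Chga (393 FPKM) and Ghrl (1414.5 FPKM) were above every control. Mast cell markers were mixed too, with 4 of 6 called higher and 1, Kit, called lower. Cpa3 was at 0.519 to 1.23 FPKM in controls and 14.5 to 25.4 FPKM in noggin libraries. Kit was at 32.4 to 43.2 FPKM in controls and 6.59 to 10.3 FPKM in noggin libraries, and Fcer1a was at 0.0537 FPKM in noggin replicate 3. The part of either cell type in the levels of Kcnip3, Kcnk16 and Kcne3 was not tested.

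**Figure D4:**
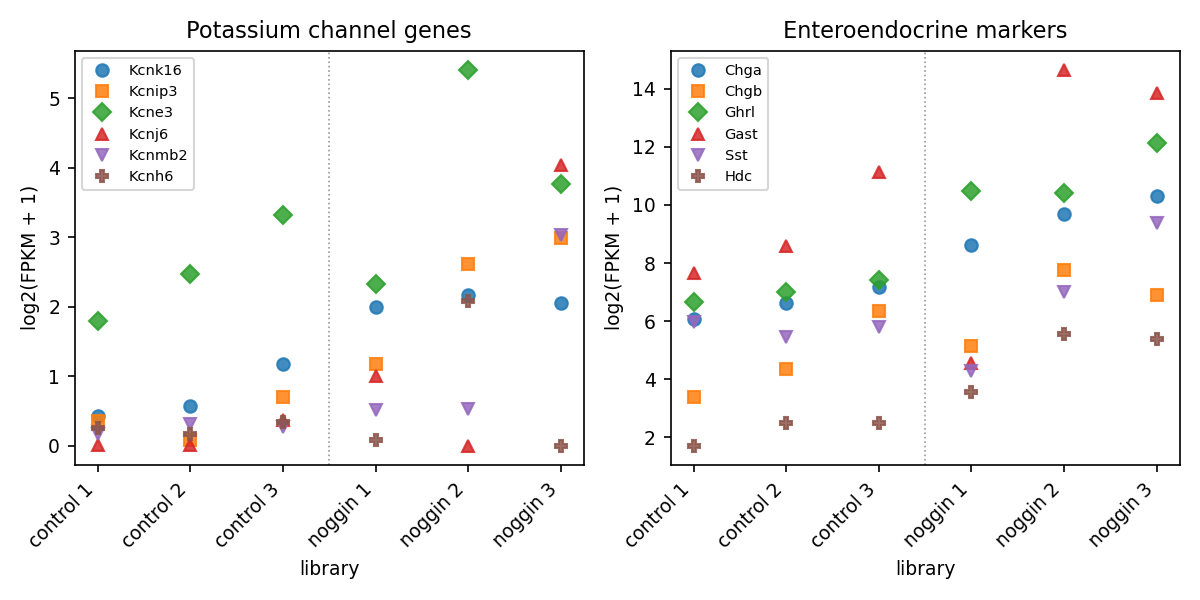
Log2(FPKM + 1) in each library of 6 of the 90 potassium channel genes (left) and of 6 of the 10 enteroendocrine markers (right). Both panels are selections, and each of the 6 channel genes shown is highest in a noggin library. Neurod1, Pax6, Scg5 and Syp are not shown, and Syp was the 1 tested marker with a negative log2 fold change (-0.40). Kcnk16 and Kcnip3 are higher in all 3 noggin libraries, and Kcne3, Kcnj6, Kcnmb2 and Kcnh6 have their highest value in noggin replicate 2 or 3. The vertical scales of the panels differ.

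Of the 39 voltage-gated pore subunits, 2 were tested. Kcng4 (chromosome 8, 119623854 to 119635680), a silent subunit that conducts only in assemblies with Kcnb subunits, was at 5.91, 4.19 and 5.46 FPKM in control replicates 1, 2 and 3 and at 5.03, 3.45 and 1.91 FPKM in noggin replicates 1, 2 and 3. Noggin replicate 1 lay within the control range and the other two lay below it. Its log2 fold change was -0.52 (SE 0.363, 95% interval -1.37 to 0.32, limma adjusted p = 0.376), and -0.25 without noggin replicate 3. Kcnb2, from that group of partners, did not exceed 0.0323 FPKM in any library.

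Kcnh2 (chromosome 5, 24319589 to 24351604), which repolarises the heart and is also found in endocrine cells, was at 3.64, 1.95 and 4.54 FPKM in control replicates 1, 2 and 3 and at 4.14, 3.44 and 12.7 FPKM in noggin replicates 1, 2 and 3. Only noggin replicate 3 was outside the control range. Noggin minus control was 0.68 in log2 (SE 0.499, limma adjusted p = 0.401), 0.18 without that library, 0.42 without control replicate 2 and 0.10 after rescaling. Of the 37 other voltage-gated pore subunits, 17 stayed under 0.1 FPKM in every library and 2 reached 1 FPKM in 1 library. Kcnh6, a relative of Kcnh2, was one of them, at 3.24 FPKM in noggin replicate 2 and at most 0.267 FPKM elsewhere.

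Kcnj13 was the 1 inward rectifier that was tested. Kcnj13 (chromosome 1, 87386363 to 87394729), a channel of small conductance found in transporting epithelia, was at 12.7, 11.1 and 9.69 FPKM in control replicates 1, 2 and 3 and at 17.1, 13.6 and 10.2 FPKM in noggin replicates 1, 2 and 3. Noggin replicates 1 and 2 were above every control and noggin replicate 3 was within the control range. Its log2 fold change was 0.25 (SE 0.275, 95% interval -0.39 to 0.88, limma adjusted p = 0.588), was 0.08 when noggin replicate 1 was left out and 0.42 when noggin replicate 3 was, and turned to -0.41 after rescaling and to -0.35 with the length correction. The gene lies inside Gigyf2 on the opposite strand and shares 0 annotated exon bases with it, so unspliced reads of either could count for the other. The apical inward rectifiers Kcnj15 and Kcnj16 had log2 fold changes of -0.98 (SE 0.213, limma adjusted p = 0.0624) and -0.90 (SE 0.212, limma adjusted p = 0.0739), with no overlap between groups.

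Kcnj6 had its signal in 1 library. This subunit of channels opened by G proteins was at 0.0104, 0.0111 and 0.292 FPKM in control replicates 1, 2 and 3 and at 1.02, 0 and 15.4 FPKM in noggin replicates 1, 2 and 3. Noggin replicate 3, the library that stood apart, was the only one above 1.02 FPKM, and noggin replicate 2 was listed at 0. Kcnj2, a strong inward rectifier, was at 0.694 to 1.35 FPKM in controls and 0.246 to 0.834 FPKM in noggin libraries. Kcnj8 and Kcnj11, the pores of channels closed by ATP, did not exceed 0.167 and 0.245 FPKM, and their regulatory subunits Abcc9 and Abcc8 did not exceed 0.352 and 1.03 FPKM.

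Kcnn4 was the 1 calcium-activated pore that was tested. Kcnn4 (chromosome 7, 24370263 to 24386690), an intermediate-conductance channel of epithelia and leukocytes that opens through bound calmodulin, was at 24.0, 16.3 and 11.3 FPKM in control replicates 1, 2 and 3 and at 26.3, 28.9 and 5.10 FPKM in noggin replicates 1, 2 and 3. Noggin replicates 1 and 2 were above every control, and noggin replicate 3 was below every control. For Kcnn4 noggin minus control was -0.03 in log2 (SE 0.612, 95% interval -1.46 to 1.39, limma adjusted p = 0.975). It turned to 0.71 (SE 0.310, limma adjusted p = 0.168) without noggin replicate 3 and to 0.22 without control replicate 1, so the sign rests on single libraries. Of 10 leukocyte markers 3 were tested and 1, Fcer1g, was called higher (Fcer1g is also a mast cell gene), with a summed level of 5.83 to 7.87 FPKM across the controls, with 23.7, 53.0 and 255 FPKM for noggin replicates 1, 2 and 3. The list was mixed in noggin replicate 3. Cd74, Lyz2, Laptm5 and Ptprc were highest there, and Cd74 (182 FPKM) and Lyz2 (52.6 FPKM) made up most of the sum. Fcer1g, at 3.40 FPKM, was the lowest of the noggin libraries there, and Cd3e, Cd79a, Csf1r and Coro1a were listed at 0. The part of leukocytes in the level of Kcnn4 was not tested.

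Genes of the large-conductance calcium-activated channel were low, apart from Lrrc26 and, in 1 library, Kcnmb2. Its pore gene Kcnma1 was at 0.00904 to 0.102 FPKM in controls and at 0.129 to 0.235 FPKM in noggin libraries. Kcnmb2, a subunit that inactivates it, was at 0.132 to 0.249 FPKM across the controls, with 0.426, 0.445 and 7.22 FPKM for noggin replicates 1, 2 and 3, where noggin replicate 3 stands alone. Lrrc26, a leucine-rich partner of this channel in secretory epithelia, was at 18.4, 9.87 and 7.60 FPKM in control replicates 1, 2 and 3 and 41.1, 18.6 and 12.4 FPKM in noggin replicates 1, 2 and 3 (log2 fold change 0.87, SE 0.479, limma adjusted p = 0.277). The other beta subunits and Lrrc partners listed did not exceed 0.0915 FPKM in any library. Kcnn1, a small-conductance channel, was at 0.0748 to 0.283 FPKM in controls and 0.460 to 1.27 FPKM in noggin libraries.

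Kcnq1ot1 (chromosome 7, 143203458 to 143296549), a long non-coding RNA made from the paternal allele that silences its neighbours, lies inside Kcnq1 on the opposite strand. It was at 0.510, 0.670 and 1.14 FPKM in control replicates 1, 2 and 3 and at 3.94, 0.618 and 5.21 FPKM in noggin replicates 1, 2 and 3. Noggin replicate 2 lay within the control range and the other two noggin libraries lay above it. On the log2 scale Kcnq1ot1 was at 1.07 (SE 0.519, limma adjusted p = 0.228). Without noggin replicate 2 it was called higher (1.66, limma adjusted p = 0.0247), in a setting that called 18.9% of all tested genes, and without noggin replicate 3 it was at 0.69 (limma adjusted p = 0.326). The annotated exons share 121 bases with Kcnq1, and without strand its reads and unspliced Kcnq1 reads cannot be told apart.

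In order of control mean, the 90 genes were led by Kcne1 (33.9 ± 6.48 FPKM, mean ± SD, n = 3), Kcnk3 (30.5 ± 6.09), Kcnk1 (25.7 ± 4.77), Kcnn4 (17.2 ± 6.40) and Kcnj13 (11.2 ± 1.52). The control ranges of neighbours in this order overlapped. Within each control library, however, Kcnn4 ranked 4 and Kcnj13 ranked 5, while Kcne1, Kcnk3 and Kcnk1 changed places between libraries. In noggin libraries the order of means was Kcnk1 (42.3 ± 20.3 FPKM, n = 3), Kcne1 (24.6 ± 6.32), Kcnk3 (21.3 ± 10.7), Kcnn4 (20.1 ± 13.0) and Kcne3 (19.4 ± 19.7), again with overlap between neighbours. The 5 genes of highest mean over all libraries, Kcnk1, Kcne1, Kcnk3, Kcnn4 and Kcnj13, held 78.3% to 83.6% of the summed FPKM of the 90 genes in controls and 77.7%, 65.9% and 49.5% in noggin replicates 1, 2 and 3. For 12 of the 14 tested genes the SD of log2(FPKM + 1) was larger in noggin than in control libraries (85.7%), as it was for 91.7% of all tested genes. Kcnk16 (SD 0.393 in controls and 0.0898 in noggin libraries) and Kcnk6 (0.223 and 0.160) were the exceptions.

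Lists of channel partners, related ion transporters and their regulators contained 2 calls. Of 16 channel partners with other names, 8 were tested, 1 rose and 7 did not pass, with a median log2 fold change of 0.23. Calm2 and Calm3, which encode calmodulin, were at 0.58 (limma adjusted p = 0.151) and 0.79 (limma adjusted p = 0.217). Of 15 genes of the sodium pump and the cation-chloride cotransporter family, 9 were tested, 1 rose and 8 did not pass, with a median of -0.65. Not every gene of that family is shown to carry potassium. Slc12a8, of the cation-chloride cotransporter family, rose from 11.9 ± 1.14 to 31.6 ± 6.78 FPKM (n = 3 each, log2 fold change 1.32, SE 0.235, limma adjusted p = 0.0429). The call of Slc12a8 was lost without control replicate 1 (1.24), control replicate 2 (1.35), control replicate 3 (1.36) or noggin replicate 1 (1.42), and in 10 of 15 alternatives in all, where the limma adjusted p ran from 0.0234 to 0.229 over the 15. After rescaling Slc12a8 was at 0.64.

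The remaining transporters did not pass. The potassium chloride cotransporter Slc12a7 was at -1.82 (SE 0.550, limma adjusted p = 0.107), with no overlap between groups. The sodium pump subunits Atp1b1 and Atp1b3 were at -0.13 and -0.01, with limma adjusted p = 0.664 and 0.972. Of 10 listed kinases and ligases that regulate such transport, 9 were in the table and 8 were tested, 0 were called and the median was -0.65. The kinase Wnk4 was at -1.52 (SE 0.441, limma adjusted p = 0.1003). Without adjustment, p was under 0.05 for 2 of 8 channel partners, 5 of 9 transporters and 3 of 8 regulators, beside 26.7% of all tested genes.

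**Figure D5:**
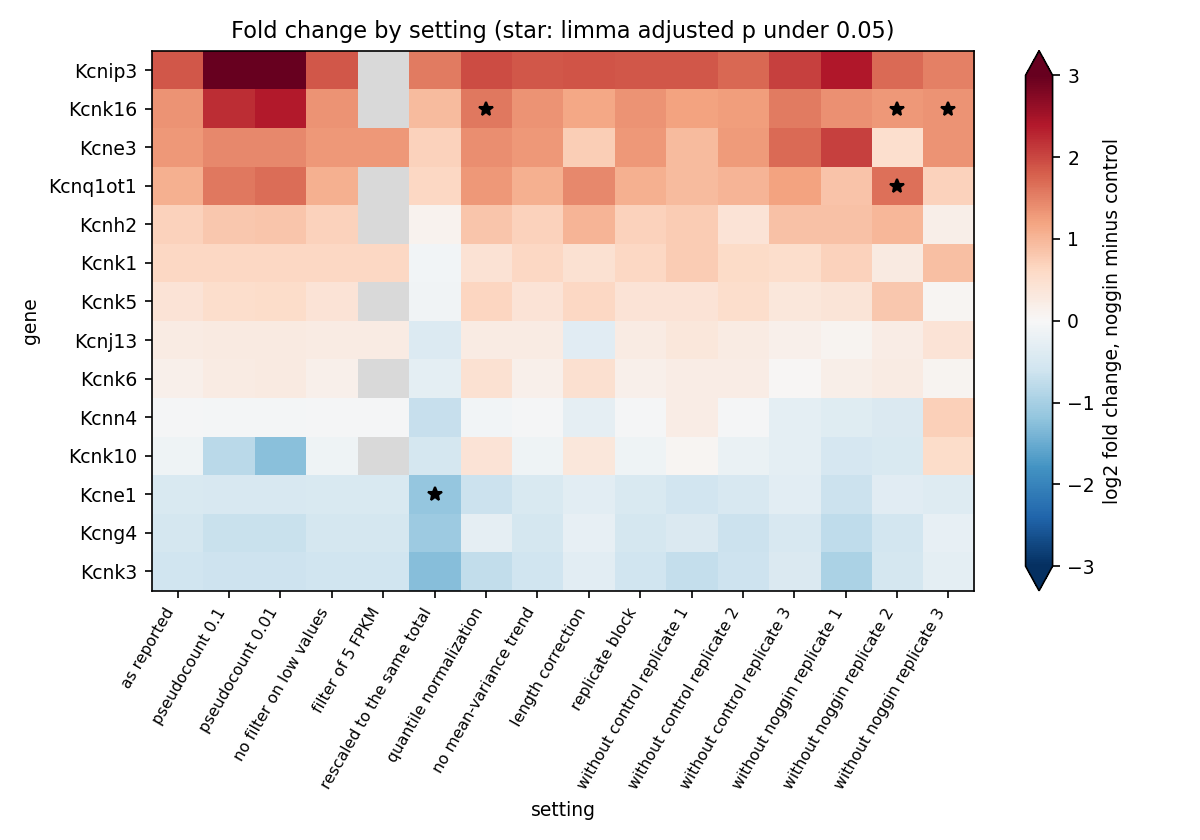
Log2 fold change of the 14 tested potassium channel genes under the reported setting and 15 alternatives, with a star where limma's adjusted p was under 0.05 and grey where the gene was not tested. Stars appear for Kcnk16 in 3 alternatives, for Kcnq1ot1 in 1 and for Kcne1 in 1, and the rescaled column is shifted toward lower values together with the median of all genes, -0.63.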

How the data were processed

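Values are FPKM as made by the authors and deposited, 1 column for each of the 6 libraries. Per the labels' protocols, SMART-Seq Ultra Low Input V3 libraries were read as 50 bp single-end reads on a HiSeq2500. The build mm10 and the tools FastQC 0.10.0 and bcl2fastq are named in the submitters' processing notes. Aligner, quantification tool, annotation and strand setting: not given in the sources used here. Groups came from the sample titles. FPKM was transformed to log2(FPKM + 1), which understates the change of low genes, and genes with at least 1 FPKM in 3 libraries were tested with limma 3.58.1 in R 4.3.3 (mean-variance trend, group as the only term), with Benjamini-Hochberg adjustment over 10644 genes. The script was tested on simulated data. Positions and the longest transcript length are from the basic set of GENCODE M21 (GRCm38), where all 90 symbols matched. Members and lists were chosen with earlier results of these data known. Genes named are tested members by level, p or lack of overlap, the 5 highest of the untested, and called genes of other lists. Some genes that this rule would name are not reported here.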

Additional observations from a re-analysis of the deposited data

How the results depend on the processing

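Alternatives changed the pseudocount, the filter, the scaling, the trend, transcript length, the replicate term or the libraries used, and the cause of each change was not tested unless a value shows it. The number of potassium channel genes called higher was 0 as reported, 1 with quantile normalization and 0 to 2 when 1 library was left out. With quantile normalization it was Kcnk16, where 4.45% of all tested genes were called. Without noggin replicate 3 it was Kcnk16, where 5.55% of all were called. Without noggin replicate 2 it was Kcnk16 and Kcnq1ot1, where 18.9% of all were called. The number called lower was 1 after rescaling (Kcne1, where 8.93% of all tested genes were called) and 0 in every other setting. Their median log2 fold change, 0.33 as reported, was 0.03 with no filter (82 genes), -0.03 with a filter of 5 FPKM (7 genes), -0.20 after rescaling and 0.25 to 0.49 when 1 library was left out. Over all genes, 186 higher and 74 lower became 85 and 26 with a pseudocount of 0.1, 72 and 21 with 0.01, 8 and 4 with no filter, 130 and 820 after rescaling, 243 and 231 with quantile normalization, 66 and 17 without the trend, 73 and 21 with the length correction, and 4 to 1187 and 5 to 825 when 1 library was left out. Signs turned after rescaling for Kcnj13 (-0.41), Kcnk1 (-0.08), Kcnk5 (-0.10) and Kcnk6 (-0.30), with the length correction for Kcnj13 (-0.35) and Kcnk10 (0.34), and with quantile normalization for Kcnk10 (0.41). When 1 library was left out Kcnk10 ran from -0.51 to 0.56 and Kcnn4 from -0.44 to 0.71.

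Libraries of the 2 groups share replicate numbers, and nothing says whether the numbers pair animals or batches. Deviations from the group means of same-numbered libraries correlated at 0.105, -0.141 and 0.00519 across genes. Pairs with different numbers ran from -0.129 to 0.12. With 3 libraries per group, these values cannot settle whether the libraries were paired. A fit with the replicate block called 128 genes higher and 32 lower, with 0 potassium channel genes, and Kcnk16 was at 1.34 (limma adjusted p = 0.134). The depth is unknown, so a gene listed at 0 or under 0.1 FPKM is not shown to be absent, and a gene that was not called is not shown to be unchanged.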
